A study of Mus musculus with 4 samples.

Results

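Genes of the proteasome were examined in normal muscle of mice. A gene was taken when its symbol started with Psma, Psmb, Psmc, Psmd, Psme, Psmf or Psmg and at least 1 probe set was assigned to it and to no other gene, and of several such probe sets the brightest on average over the 4 samples was used. This gave 48 genes of the 12393 that could be measured. One further probe set was assigned to both Psme2, a subunit of an activator, and its copy Psme2b, and was left out. No usable probe set was found for Psmb11, the catalytic subunit of the thymus.

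All 4 samples belong to 1 group, normal muscle of Wild Type mice on a background of 129S4/SvJae mixed with C57BL/6, with 1 array each. They are titled skm4, skm5, nm7 and nm8. The labels give no age, no named muscle and no treatment, do not say whether the samples came from separate animals, and do not say what the prefixes skm and nm mean. The only comparison the labels allow is therefore between title prefixes, skm minus nm, and it is not a comparison of conditions. Expression is given per probe set on the log2 scale after robust multi-array averaging (RMA), so a difference of 1 is 2-fold. Values ran from 2.80 to 14.76 on these arrays, with array medians of 7.26 to 7.30. All 8 measured markers of skeletal muscle read between 13.73 and 14.70.

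The proteasome is the protease that degrades proteins tagged with ubiquitin. Its 20S core is a barrel of alpha rings, which gate the entrance, and beta rings, which hold the cutting sites, and its 19S cap has a base of ATPases that unfold the substrate and non-ATPase subunits that bind and remove ubiquitin. Immune cells, and other cells under interferon, replace the catalytic beta subunits with inducible ones and form the immunoproteasome. In muscle the proteasome carries out much of the protein loss of fasting and disuse.

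The proteasome genes varied little between the samples. Their median SD over the 4 samples was 0.14, against 0.19 over all genes, and 36 of 48 lay under the median of all genes. Brighter genes vary less on these arrays, and in the brighter part of the array, from the median level upward, the median SD was 0.13 for 45 proteasome genes and 0.17 for all 6197 genes. A range over 1 was seen in 1 of 48, Psmb9, against 5.98% of all genes. Between the prefixes, 0 of 48 genes passed limma's test at an adjusted p of 0.05, where 0.0323% of all genes did, 0.0242% as higher and 0.00807% as lower in skm. At an adjusted p of 0.10 there were 3 (6.25%), Psmb8, Psmc3ip and Psmd2, against 8.03% of all genes. At an unadjusted p under 0.05 there were 7 (14.6%), 3 higher and 4 lower in skm, where 23.5% of all genes reached that level, 10.6% as higher and 13% as lower. The median skm minus nm difference was -0.04 over the proteasome genes and -0.0034 over all genes. Both skm samples lay on 1 side of both nm samples in 33 genes (68.8%, against 54.4% of all genes), above in 14 (29.2%, against 25.8%) and below in 19 (39.6%, against 28.6%). The highest of the 4 readings was that of nm8 in 20 genes (41.7%, against 27.2% of all genes).

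**Figure D1:**
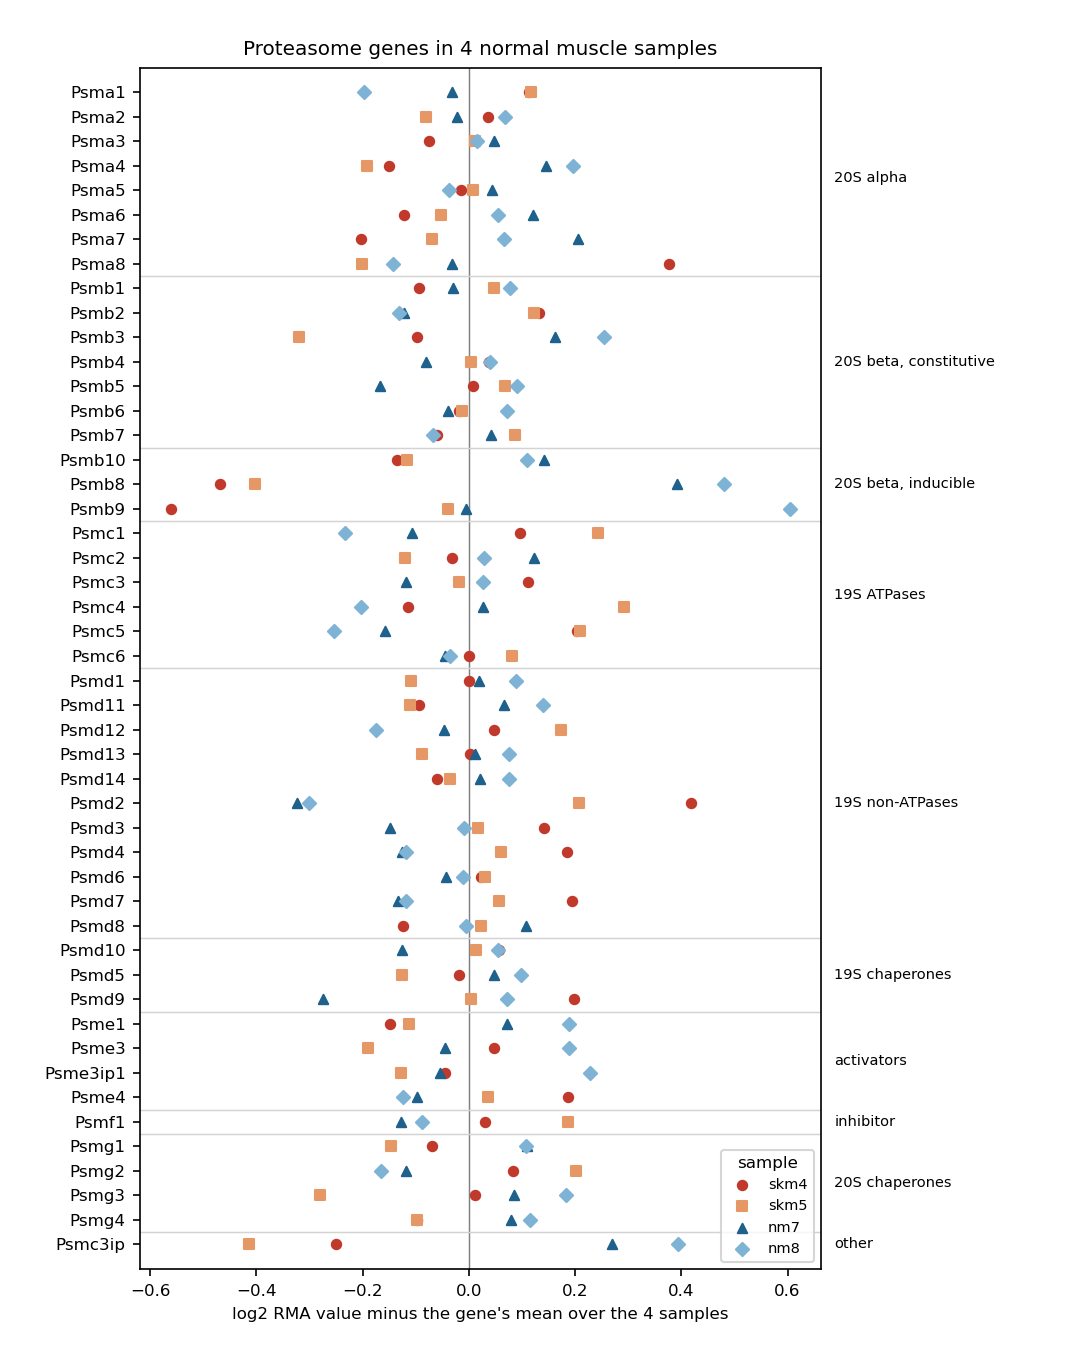
Each row is 1 of the 48 proteasome genes, grouped by role, and the horizontal axis is the log2 RMA value minus the gene's mean over the 4 samples, with 1 mark per sample. Most marks lie close to 0, and Psmb8, Psmb9, Psmd2 and Psmc3ip spread the widest, with SDs of 0.51, 0.48, 0.37 and 0.39.

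By median difference, at -0.60, the inducible catalytic subunits were the part of the complex that read lowest in skm relative to nm. This rested on Psmb8 and Psmb9. Psmb10, at -0.25, was less negative than the constitutive subunits Psmb3, Psma4 and Psma7, at -0.42, -0.34 and -0.27. Psmb8 replaces Psmb5, the subunit that cuts after hydrophobic residues, Psmb9 replaces Psmb6, and Psmb10 replaces Psmb7. Psmb8 and Psmb9 lie in the major histocompatibility complex beside the peptide transporter genes. The first stretch upstream of the gene start is shown for both of these genes and for their constitutive partners, because their values differed, together with that of Psmd2, the subunit with the largest positive difference. Each line holds the 200 bases before the start, read 5′ to 3′ on the gene's strand, from RefSeq on GRCm38.p6. They lie at chr17:34197995-34198194 on the plus strand for Psmb8, chr14:54617996-54618195 on the minus strand for Psmb5, chr17:34187331-34187530 on the minus strand for Psmb9, chr11:70525157-70525356 on the plus strand for Psmb6 and chr16:20651452-20651651 on the plus strand for Psmd2. Capitals mark TGACNNNGC in Psmb5 and Psmb6, CCAAT in Psmb9 and CGGAAG in Psmd2, in either orientation, and none of these letters are in the stretch of Psmb8.
Psmb8: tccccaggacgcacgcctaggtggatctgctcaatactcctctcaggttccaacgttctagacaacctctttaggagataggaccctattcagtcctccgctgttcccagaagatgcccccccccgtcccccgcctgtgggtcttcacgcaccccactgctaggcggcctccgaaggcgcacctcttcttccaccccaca
Psmb5: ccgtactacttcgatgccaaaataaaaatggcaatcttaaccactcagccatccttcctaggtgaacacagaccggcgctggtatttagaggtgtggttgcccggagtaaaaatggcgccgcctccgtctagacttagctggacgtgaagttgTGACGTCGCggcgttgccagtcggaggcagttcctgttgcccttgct
Psmb9: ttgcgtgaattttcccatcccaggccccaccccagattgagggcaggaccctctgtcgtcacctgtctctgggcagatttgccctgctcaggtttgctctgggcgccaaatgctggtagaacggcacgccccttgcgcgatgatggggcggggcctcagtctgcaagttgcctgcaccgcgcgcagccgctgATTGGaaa
Psmb6: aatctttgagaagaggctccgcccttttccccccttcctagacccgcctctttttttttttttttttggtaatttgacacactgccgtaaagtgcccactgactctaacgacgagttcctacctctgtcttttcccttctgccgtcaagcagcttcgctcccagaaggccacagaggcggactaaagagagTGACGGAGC
Psmd2: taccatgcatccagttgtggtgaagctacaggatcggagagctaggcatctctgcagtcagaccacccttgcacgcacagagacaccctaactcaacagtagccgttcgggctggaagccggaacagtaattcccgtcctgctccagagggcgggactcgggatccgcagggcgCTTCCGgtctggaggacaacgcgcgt

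These letters were searched for on both strands in the 250 bases before the start, for the 40 proteasome genes with a promoter entry. Those with none were Psma8, Psmb1, Psmb2, Psmb7, Psmc3, Psmd3, Psmd7 and Psmg2. TGACNNNGC, the core of the antioxidant response element through which Nfe2l1 acts, was found for Psmb5, Psmb6, Psmc6, Psmd9 and Psmd12, 12.5% of the 40, against 11.5% of all genes with an entry and 13.5% of genes measured on the array. CCAAT, the box bound by NF-Y, was found for 15 genes, 37.5% against 37.5% of all genes and 39.9% of genes measured on the array. CGGAAG, the core pattern of ETS factors, was found for 19 genes, 47.5% against 15.3% of all genes and 24.1% of genes measured on the array. Each printed stretch other than that of Psmb8 holds 1 match to these patterns, so none overlaps another. A match describes letters and is not a binding site.

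Psmb8 read 7.86 in skm4 and 7.93 in skm5, against 8.72 in nm7 and 8.81 in nm8. The skm samples lay close together and well below the nm samples. The difference was -0.87 ± 0.12 (SE, n = 2 per prefix), 1.83-fold lower in skm, and missed the threshold in limma's test at an adjusted p = 0.0506. It was the lowest adjusted p of the proteasome genes. Psmb8 passed with quantile normalization (limma, adjusted p = 0.047), with the mean of probe sets (0.049) and without the _x_at and _s_at probe sets, which can match several transcripts (0.048). It also passed with the dimmer genes filtered out (0.015) and with an intensity trend (0.014). It did not pass with any sample left out, where a single array stands for a prefix and hardly any gene passed. Its difference there was -0.83 to -0.92. Over all genes tested, quantile normalization passed 1.5%, the mean of probe sets 0.742% and the set without _x_at and _s_at probe sets 1.17%, so calls were gained well beyond Psmb8. The filter passed 16.6% of the genes kept, 7.44% as higher and 9.12% as lower, and the trend passed 8.96% of all genes, 3.81% as higher and 5.15% as lower. The mean log2 level of 11 lymphocyte markers, described after the MHC class I genes, was 6.35 in skm4 and 7.48 in skm5, against 8.58 in nm7 and 8.84 in nm8. In whole muscle, fewer cells of a type and less RNA per cell cannot be told apart, and the part of lymphocytes in the values of Psmb8 was not tested.

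Psmb9 read 7.28 in skm4 and 7.80 in skm5, against 7.83 in nm7 and 8.44 in nm8. Here skm4 was low and nm8 high, while skm5 and nm7 differed by little, so the separation between the prefixes was narrow. The difference was -0.60 ± 0.27 (limma, adjusted p = 0.25), and it was -0.34 without skm4, -0.86 without skm5, -0.90 without nm7 and -0.29 without nm8. Psmb10 read 8.87 in skm4 and 8.89 in skm5, against 9.15 in nm7 and 9.12 in nm8. Its difference was -0.25 ± 0.11 (limma, adjusted p = 0.26), small but without overlap between the prefixes.

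The constitutive partners did not show this order. Psmb5 read 11.91 in skm4 and 11.97 in skm5, against 11.73 in nm7 and 11.99 in nm8, a difference of 0.08 ± 0.14. Psmb6 read 11.90 in both skm samples, against 11.87 in nm7 and 11.99 in nm8, a difference of -0.03 ± 0.12. Psmb7 read 12.29 in skm4 and 12.44 in skm5, against 12.39 in nm7 and 12.28 in nm8, a difference of 0.03 ± 0.13. In all of these the nm samples spanned or overlapped the skm samples, and the sign of each turned when 1 sample was left out.

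Set against its partner within each sample, every inducible subunit was lower in both skm samples than in both nm samples. The log2 difference Psmb8 minus Psmb5 was -4.04 in skm4 and -4.04 in skm5, against -3.01 in nm7 and -3.18 in nm8. Psmb9 minus Psmb6 was -4.62 in skm4 and -4.10 in skm5, against -4.04 in nm7 and -3.55 in nm8. Psmb10 minus Psmb7 was -3.42 in skm4 and -3.54 in skm5, against -3.24 in nm7 and -3.16 in nm8. Only the change between samples can be read here, since different probe sets are not on 1 scale. The mean changes were -0.95, -0.57 and -0.28, each with a 2-sided exact permutation p = 0.333, the smallest that 6 assignments of 2 against 2 samples allow, for 3 pairs.

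**Figure D2:**
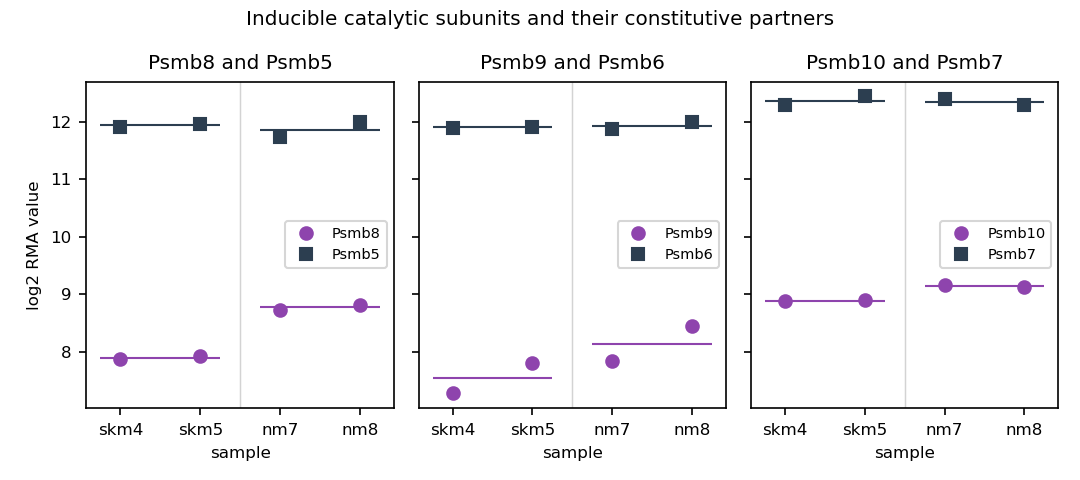
Each panel shows the log2 RMA value of 1 inducible catalytic subunit and its constitutive partner in the 4 samples, with short lines at the mean of each prefix. Psmb8 averaged 7.89 in skm and 8.77 in nm, while Psmb5 averaged 11.94 and 11.86, so the distance between them was wider in skm.

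The activators bind the ends of the core in place of the 19S cap, and Psmf1 encodes an inhibitor of the core. Psme1, a subunit of the interferon-induced activator, read 10.27 in skm4 and 10.30 in skm5, against 10.49 in nm7 and 10.60 in nm8. Its difference of -0.26 ± 0.12 (limma, adjusted p = 0.27) had the direction of the inducible subunits, with no overlap. Psme3, the nuclear activator, read 9.36 in skm4 and 9.12 in skm5, against 9.27 in nm7 and 9.50 in nm8, a difference of -0.14 ± 0.15 with overlap. It was -0.26 without skm4, -0.025 without skm5, and 0.00019 with the mean of its probe sets. Psme4, the activator that acts in DNA repair and spermatogenesis, read 12.38 in skm4 and 12.23 in skm5, against 12.09 in nm7 and 12.07 in nm8, a difference of 0.22 ± 0.12 (limma, adjusted p = 0.34), and 0.15 without skm4. Psmf1 read 8.50 in skm4 and 8.65 in skm5, against 8.34 in nm7 and 8.38 in nm8, a difference of 0.22 ± 0.12 (limma, adjusted p = 0.35), and 0.14 without skm5. In the probe sets used, both genes were higher in each skm sample than in each nm sample, and neither passed the test. Other probe sets of Psme4 gave 0.54, and -0.01 with overlap. Those of Psmf1 gave 0.64, and -0.01 and 0.13 with overlap.

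Of the 11 measured genes that load peptides onto MHC class I or regulate the interferon response, 10 had a negative difference, with a list median of -0.28 and a median SD of 0.20. Limma's test passed 0 of 11, and 2, both lower, had an unadjusted p under 0.05, where 13% of all genes did as lower. H2-K1, a class I heavy chain, read 11.28 in skm4 and 11.68 in skm5, against 12.00 in nm7 and 12.22 in nm8, a difference of -0.63 ± 0.18 (limma, adjusted p = 0.12). It was -0.33 with the mean of its probe sets (limma, adjusted p = 0.28), and H2-K1 passed with an intensity trend (0.037). H2-K1 was read by an _x_at probe set, which can match several transcripts, so the reading may not be of that gene alone. Erap1, which trims peptides, differed by -0.37 ± 0.12, B2m, the class I light chain, by -0.40 ± 0.22 and Tap1, a chain of the peptide transporter, by -0.32 ± 0.18. B2m was -0.096 without skm4 and -0.71 without skm5. Tap1 was -0.12 without nm8, -0.21 without skm4, -0.52 without nm7 and -0.049 with the mean of its probe sets. Over the list, 9 of 11 had no overlap on the low side, against 28.6% of all genes, and 1 on the high side, against 25.8%. The list was chosen with earlier results of these data known, so these shares describe it and do not test it.

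Markers of lymphocytes, in which the inducible subunits are the usual form, read lower in skm alongside these genes. All 11 measured markers of 12 were lower in both skm samples, against 28.6% of all genes, with a median difference of -1.75. An unadjusted p under 0.05 was seen in 11, against 13% of all genes as lower, while 0 passed limma's test after adjustment. This list was also chosen with earlier results of these data known, so the shares describe it and do not test it. The dimmest value of these lymphocyte markers was 4.85, not far above the 3.40 to 4.05 of the 3 control probe sets for the bacterial transcript TrpnX. In skm4, Ms4a1, Cd3g and Ms4a4b read 4.85, 4.90 and 5.09. RMA compresses differences near the background, so the sizes of their differences are uncertain. Cd3g, part of the antigen receptor of T cells, read 4.90 in skm4 and 5.66 in skm5, against 7.45 in nm7 and 8.09 in nm8, a difference of -2.49 ± 0.32. Ptprc, the phosphatase of all leukocytes, read 7.28 in skm4 and 9.33 in skm5, against 10.42 in nm7 and 10.54 in nm8, a difference of -2.18 ± 0.63. The T cell gene Ms4a4b and the B cell gene Ms4a1 differed by -3.05 ± 0.90 and -2.33 ± 0.65. Ms4a4b read 5.09 in skm4 and 7.98 in skm5, against 9.24 in nm7 and 9.93 in nm8, and Ms4a1 read 4.85 in skm4 and 6.97 in skm5, against 8.23 in nm7 and 8.25 in nm8. The low reading of skm4 set much of the size of these differences. Without skm4 they were -1.61 for Ms4a4b, -1.27 for Ms4a1 and -1.16 for Ptprc. Without skm5, which leaves skm4 alone for its prefix, they were -4.49, -3.39 and -3.21. Ms4a4b was -1.59 with the mean of its probe sets. Centred on each gene's mean, Psmb8, Psmb9, Psmb10 and Psme1 had medians of -0.31 in skm4, -0.11 in skm5, 0.11 in nm7 and 0.33 in nm8, and the lymphocyte markers had -1.55, -0.29, 0.88 and 1.12 in the same samples. The adipocyte markers had -0.56, -0.13, 0.27 and 0.37, so the medians of all 3 lists put the 4 samples in the same order. Within the first list, the step between skm4 and skm5 was large in Psmb9 alone, and Psmb10 read higher in nm7 than in nm8. Between skm4 and skm5 the median absolute difference was 0.05 for these 4 genes, 0.76 for the lymphocyte markers and 0.45 for the adipocyte markers. The part of either cell type in the values of Psmb9, Psmb10 and Psme1 was not tested either. The medians of the other marker lists were -0.31 for 9 macrophage markers, -0.69 for 6 adipocyte markers, 0.06 for 7 endothelial markers, 0.59 for 8 keratinocyte markers, whose mean level was 7.80 in skm5 and 6.02 in skm4 against 5.88 in nm7 and 6.32 in nm8, and 0.01 for 8 muscle markers. The endothelial median joined differences in both directions, named here after their values were seen. Pecam1, an adhesion molecule of endothelium, differed by 1.31 ± 0.16 and Ramp2, a receptor partner, by 0.99 ± 0.12 (limma, adjusted p = 0.051 each), and Kdr, a receptor of vascular growth factor, by -0.58 ± 0.12 (0.078).

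**Figure D3:**
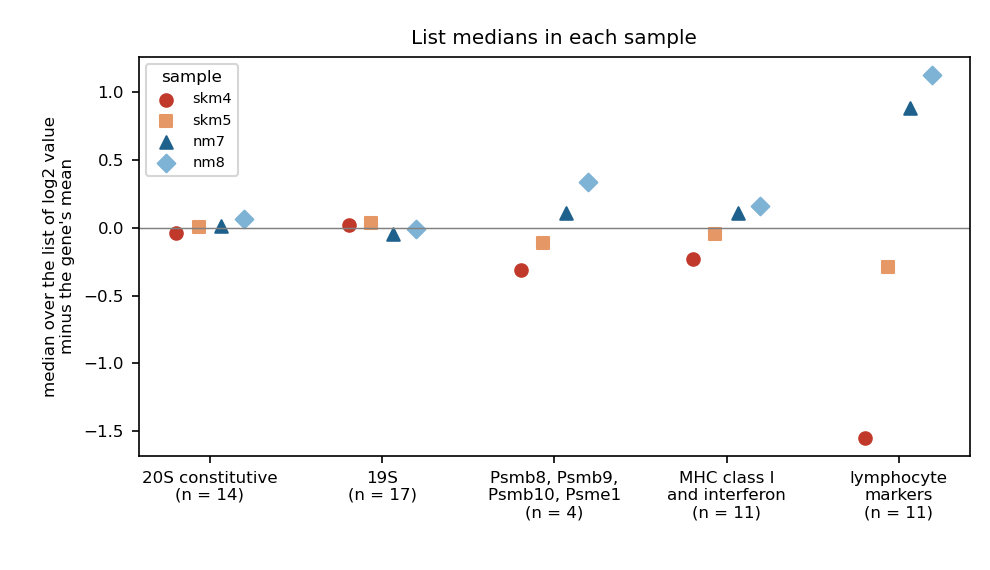
The vertical axis is the median over a gene list of the log2 RMA value minus each gene's mean over the samples, with 1 mark per sample. The constitutive 20S and 19S lists stay between -0.05 and 0.06, while the inducible subunits with Psme1, the MHC class I list and the lymphocyte markers are lowest in skm4 and highest in nm8.

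Of the 7 subunits of the alpha ring outside the testis form, 6 had a negative difference, as did 6258 of all 12393 genes, and 1, Psma1, a positive one. The median was -0.06, and 0 passed limma's test. An unadjusted p under 0.05 was seen in 1, as lower, against 13% of all genes. In both skm samples 4 were lower, against 28.6% of all genes. Psma4 read 11.79 in skm4 and 11.74 in skm5, against 12.08 in nm7 and 12.13 in nm8, a clear gap between the prefixes. Its difference was -0.34 ± 0.12 (limma, adjusted p = 0.16), and it passed with an intensity trend alone (0.039). Psma7 read 10.56 in skm4 and 10.69 in skm5, against 10.97 in nm7 and 10.83 in nm8, a difference of -0.27 ± 0.13. Psma6 differed by -0.17 ± 0.12, also without overlap. Psma1 was the exception, at 11.42 in both skm samples, against 11.27 in nm7 and 11.10 in nm8, a difference of 0.23 ± 0.12. Psma2, Psma3 and Psma5 had differences of -0.05, -0.06 and -0.01, within an SE of 0.12 each. Psma8, the alpha subunit of the testis, read 4.80 in skm4 and 4.22 in skm5, against 4.39 in nm7 and 4.28 in nm8, close to the TrpnX control probe sets. It was above the others in skm4 only, and its difference of 0.18 ± 0.21 was -0.11 without that sample.

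In the constitutive beta ring, 4 of 7 subunits had a positive and 3 a negative difference, and the median was 0.03. Psmb3, a structural subunit of the ring, read 11.84 in skm4 and 11.62 in skm5, against 12.10 in nm7 and 12.19 in nm8. Both skm samples were lower, by -0.42 ± 0.14 as a mean difference (limma, adjusted p = 0.15, and 0.042 with an intensity trend). A second probe set of Psmb3 went the other way, at 11.35 in skm4 and 11.46 in skm5 against 11.11 in nm7 and 11.22 in nm8, and the mean of both gave -0.09. Psmb2, another structural subunit, read 10.89 in skm4 and 10.88 in skm5, against 10.64 in nm7 and 10.63 in nm8. That is a difference of 0.25 ± 0.11 (limma, adjusted p = 0.26), with no overlap and hardly any spread within a prefix. Psmb1 and Psmb4 differed by -0.05 ± 0.13 and 0.04 ± 0.12, with overlap.

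Of the 17 subunits of the 19S cap among the genes chosen by symbol, 11 had a positive difference, as did 6135 of all 12393 genes. Whether the cap differed from the core was not tested. The median was 0.09, and 9 were higher and 5 lower in both skm samples, against 25.8% and 28.6% of all genes. Limma's test passed 0 of 17 after adjustment, and 3, all higher, had an unadjusted p under 0.05, where 10.6% of all genes did as higher. Psmd2, the scaffold that docks ubiquitin receptors and the deubiquitinase Usp14, read 12.08 in skm4 and 11.87 in skm5, against 11.34 in nm7 and 11.36 in nm8. Both skm samples were well above both nm samples. The difference was 0.63 ± 0.13, 1.54-fold higher in skm (limma, adjusted p = 0.078), and it passed with the dimmer genes filtered out (0.023) and with an intensity trend (0.014).

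The ATPases of the base form a ring that pulls the substrate into the core, and 5 of 6 had a positive difference, with a median of 0.14. Psmc5 read 11.54 in both skm samples, against 11.18 in nm7 and 11.08 in nm8. Its difference was 0.41 ± 0.12 (limma, adjusted p = 0.12), with no overlap, and it passed with the dimmer genes filtered out (0.041) and with an intensity trend (0.028). Psmc1 read 10.84 in skm4 and 10.98 in skm5, against 10.64 in nm7 and 10.51 in nm8. Its difference was 0.34 ± 0.13 (limma, adjusted p = 0.19), and it was 0.0020 when averaged with a second probe set that read only 3.95 to 4.31. Psmc2 was the ATPase with a negative difference, -0.15 ± 0.12, and Psmc3, Psmc4 and Psmc6 differed by 0.09 ± 0.13, 0.18 ± 0.18 and 0.08 ± 0.12. Psmc4 had the widest spread of these, with 11.20 in skm5 against 10.79 in skm4, 10.93 in nm7 and 10.70 in nm8.

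Among the 11 non-ATPase subunits, 6 had a positive and 5 a negative difference, from -0.20 to 0.63. Psmd4, a ubiquitin receptor, read 11.91 in skm4 and 11.78 in skm5, against 11.59 in nm7 and 11.60 in nm8, a difference of 0.25 ± 0.12. Psmd7, the partner of the deubiquitinase subunit, read 10.81 in skm4 and 10.67 in skm5, against 10.48 in nm7 and 10.50 in nm8, a difference of 0.25 ± 0.12. Both were higher in each skm sample than in each nm sample. Psmd12 and Psmd3, structural subunits of the lid, differed by 0.22 ± 0.13 and 0.16 ± 0.13, and Psmd6, also of the lid, by 0.05 ± 0.11. Psmd11, another lid subunit, read 11.83 in skm4 and 11.81 in skm5, against 11.99 in nm7 and 12.06 in nm8, a difference of -0.20 ± 0.12. Negative differences were also seen for Psmd1, a scaffold of the base, at -0.11 ± 0.12, Psmd8, of the lid, at -0.10 ± 0.13, Psmd14, the deubiquitinase that removes the ubiquitin chain, at -0.09 ± 0.12, and Psmd13, of the lid, at -0.09 ± 0.12. The prefixes overlapped in Psmd8 and in no other of the 11, where 54.4% of all genes had no overlap. Only Psmd2, Psmd4 and Psmd7 differed by more than 2 SE. Over all 31 constitutive subunits of core and cap chosen by symbol, 16 differences were positive, the median was 0.03 and the median SD 0.11. Sem1, a lid subunit without such a symbol, is given with the partners below and is not counted here.

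**Figure D4:**
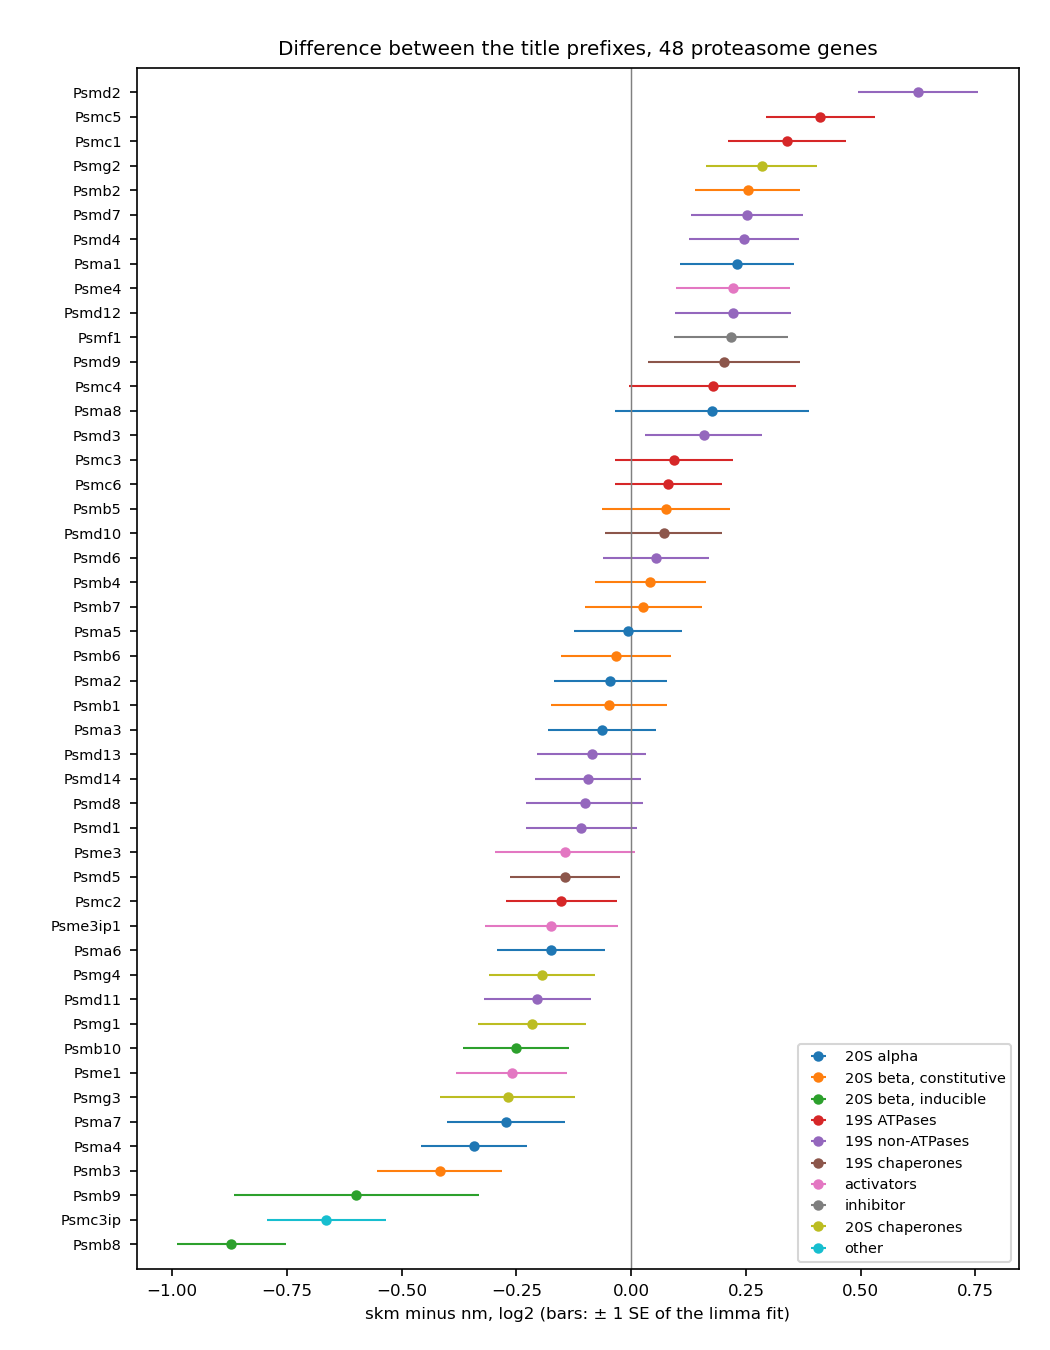
Each point is the skm minus nm difference of 1 proteasome gene on the log2 scale with its SE, coloured by role and ordered by size. Psmd2 at 0.63 and Psmb8 at -0.87 mark the ends, subunits of the 19S cap make up 11 of the 22 positive differences, and the inducible subunits lie among the lowest.

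The assembly chaperones guide the building of the core and of the base and do not stay in the finished particle. For the core, Psmg2, which pairs with Psmg1, read 9.94 in skm4 and 10.06 in skm5, against 9.74 in nm7 and 9.69 in nm8. Its difference was 0.28 ± 0.12 (limma, adjusted p = 0.23), with no overlap, and 0.47 with the mean of its probe sets. Its partner Psmg1 read 9.25 in skm4 and 9.17 in skm5, against 9.42 in both nm samples, and so went the other way, at -0.22 ± 0.12. The same holds for Psmg3 and Psmg4, which form the other pair, at -0.27 ± 0.15 and -0.19 ± 0.11. None of these genes overlapped between the prefixes, and 54.4% of all genes had no overlap either. For the base, Psmd5, Psmd9 and Psmd10 differed by -0.14 ± 0.12, 0.20 ± 0.17 and 0.07 ± 0.13.

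Besides the assembly chaperones, the activators and Psmf1, a further pair of the genes chosen by symbol do not encode proteasome subunits. Psmc3ip encodes a partner of the recombinases that repair DNA by strand exchange, and it read 6.58 in skm4 and 6.42 in skm5, against 7.10 in nm7 and 7.22 in nm8. Its difference of -0.66 ± 0.13 (limma, adjusted p = 0.071) was 1.58-fold lower in skm, without overlap. Psme3ip1, whose product binds Psme3, differed by -0.17 ± 0.14 with overlap. Without Psmc3ip and Psme3ip1, the median difference of the remaining 46 genes was -0.02.

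Other probe sets of the same genes gave a further reading of the same RNA. The 48 genes had 85 probe sets, and 21 genes had more than 1, up to 6 for Psmd11. Of the 37 probe sets not used above, 21 had a difference of the same sign as the one used. Of the 20 at or above the median level of 7.35, 14 had. Psmd4 kept its sign in both of its other probe sets, with 0.89 for the brighter one, which read 10.75 in skm4 and 10.70 in skm5, against 9.98 in nm7 and 9.69 in nm8. Psmg2 had 0.66 in its second probe set. Psma5 had 0.54 in a second probe set against -0.01 in the first, and Psmc2 had 0.10 in its other probe set against -0.15. Psmd11 was mixed: beside -0.20 in the probe set used, its 3 other probe sets brighter than 7.35 gave 0.11, -0.28 and -0.04, and 2 dimmer ones gave 0.08 and 0.21. Psmb8, Psmb9, Psmb10, Psme1, Psmd2 and Psmc5 had a single probe set each, so their differences could not be read a second time.

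**Figure D5:**
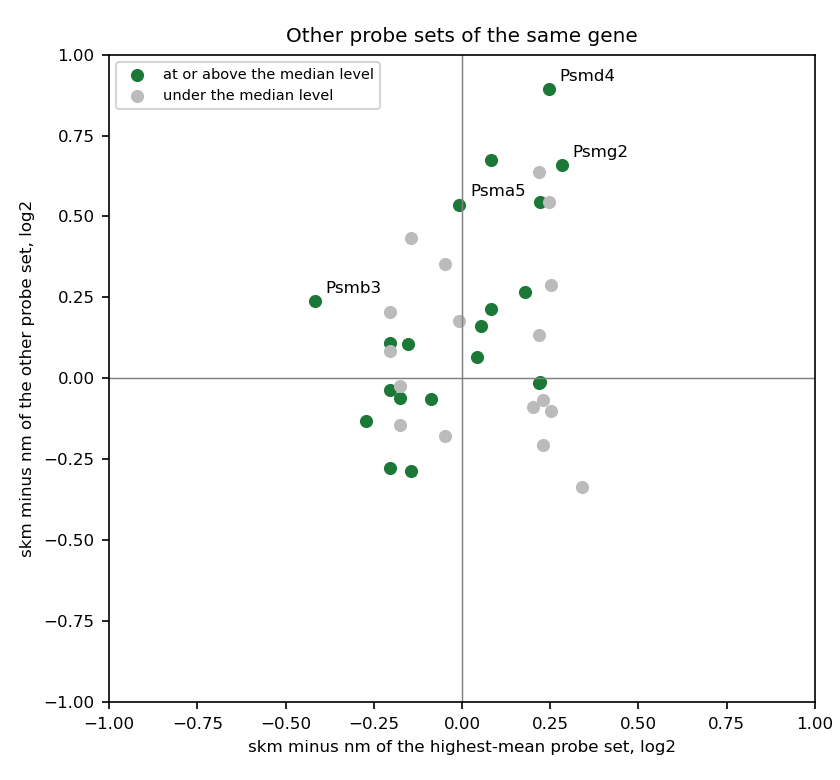
Each point is 1 of the 37 further probe sets of proteasome genes, with the skm minus nm difference of the gene's highest-mean probe set on the horizontal axis and its own on the vertical axis, both on the log2 scale. Points in the lower left and upper right keep the sign, as Psmd4 and Psmg2 do, and Psmb3 lies in the upper left with -0.42 and 0.24.

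The genes that work with the proteasome are given by role. Of 14 measured partners in assembly, docking and substrate delivery, 0 passed limma's test and 0 had an unadjusted p under 0.05, against 23.5% of all genes. Their median difference was -0.04 and their median SD 0.10. Usp14, the deubiquitinase docked on Psmd2, differed by 0.31 ± 0.16, Ubqln2, a shuttle for ubiquitinated proteins, by -0.30 ± 0.16, Akirin2, an import factor of the proteasome, by -0.29 ± 0.12 and Sem1, a small subunit of the lid, by -0.17 ± 0.12. Left-out samples moved Usp14 between 0.16 without skm4 and 0.45 without skm5, and Ubqln2 between -0.14 without skm4 and -0.47 without skm5. With the mean of probe sets Usp14 was 0.14, Ubqln2 -0.16 and Akirin2 -0.099. Of 9 genes that control transcription of proteasome genes, 0 passed and 0 had an unadjusted p under 0.05, with a median of 0.08. Nfe2l1, the activator that restores proteasome genes when activity falls, read 11.67 in skm4 and 11.53 in skm5, against 11.40 in nm7 and 11.45 in nm8, a difference of 0.17 ± 0.12. Nfya, a subunit of NF-Y, differed by 0.34 ± 0.15, Bach1, a repressor at antioxidant response elements, by -0.26 ± 0.12 and Ngly1, which processes Nfe2l1, by 0.19 ± 0.12. Nfya was 0.19 without skm4 and 0.15 with the mean of its probe sets, and Nfe2l1 was 0.10 without skm4.

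Of 8 measured ubiquitin ligases of muscle or of the proteasome, 0 passed, with a median of 0.18. An unadjusted p under 0.05 was seen in 1 in each direction, against 10.6% of all genes as higher and 13% as lower. Stub1, a ligase that works with chaperones, read 11.82 in skm4 and 11.76 in skm5, against 11.37 in nm7 and 11.45 in nm8, a difference of 0.38 ± 0.12. Ube3a, the founding ligase of its class, read 10.81 in skm4 and 10.66 in skm5, against 11.05 in nm7 and 11.13 in nm8, a difference of -0.36 ± 0.13. These ran in opposite directions, each without overlap. Ube3c, a ligase bound to the proteasome, differed by 0.28 ± 0.12, and Fbxo21, the substrate receptor of a ligase, by 0.27 ± 0.15. With the mean of probe sets Stub1 was 0.25 and Ube3c 0.13, and Fbxo21 was 0.13 without nm8 and 0.41 without nm7. Stub1 passed with the dimmer genes filtered out (limma, adjusted p = 0.049) and with an intensity trend (0.034). Of 7 ubiquitin and E1 genes listed, 1 had a usable probe set, Uba7, the E1 of the interferon-induced modifier Isg15, with a difference of 0.14 ± 0.14, which was 0.0070 without nm7 and 0.28 without nm8.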

How the data were processed

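Total RNA of 4 normal muscle samples was hybridised to 1-colour Affymetrix arrays. The deposited log2 values are per probe set and were made by the authors with RMA. The submitters' processing notes name Affymetrix Expression Console 1.1. RMA compresses differences near the background, and no source used here says which arrays were normalized together. RNA came from a fibrous tissue kit or from TRIzol, per the labels' protocols, with no route given for a single sample.

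Of 22690 probe sets, 64 controls were left out, and 20380 had 1 gene, 691 several and 1555 none in the platform annotation. Symbols were updated by Entrez identifier against the GRCm38.p6 gene table, and the highest-mean probe set stood for each of 12393 genes. The test was that of limma 3.58.1 under R 4.3.3 (linear model with moderated variance, 2 arrays against 2, 2-sided, Benjamini-Hochberg over all genes, threshold 0.05), with 2 residual and 3.51 prior degrees of freedom. SEs are of that fit. In simulated arrays the test called 35 of 100 genes changed by 1 and 74 of 100 changed by 2 on the log2 scale. There the spreads were shuffled over genes, noise was independent and few genes were changed, so these shares need not hold for the real arrays. The labels do not name separate animals, so p-values cover the spread among these arrays and that spread may be technical. Precision is limited by how few arrays there are. The members and lists were chosen with earlier results of these data known, and the searched promoter letters after values were seen. Named in full were members past the threshold, the 5 highest and 5 lowest by moderated t, the 6 with the largest SD, the exchange pairs, activators and Psmf1, and up to 4 genes of each pathway list and of the lymphocyte markers. Alternatives were 2 other normalizations, the mean of probe sets, leaving out _x_at and _s_at probe sets, a filter at the median level, an intensity trend, a threshold of 0.10, the range, and each sample left out.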

Additional observations from a re-analysis of the deposited data

Results flagged for a closer look

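Uba7 was the gene for which 1 sample stood far from the others, at 7.05 in nm7, against 7.32 in skm4, 7.34 in skm5 and 7.32 in nm8. The gap was 0.938 of the range, above Dixon's critical value for 4 samples. It was 1 of 21 other named genes tested, and chance flags about 1 in 20. None of the 48 proteasome genes had such a sample.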

How the results depend on the processing

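The number of proteasome genes past limma's threshold, 0 (7 at an unadjusted p under 0.05), was 1 (Psmb8) with quantile normalization, with the mean of probe sets and without _x_at and _s_at probe sets, where 1.5%, 0.742% and 1.17% of genes passed, against 0.0323%. It was 3 (Psmb8, Psmc5 and Psmd2) with genes under the median level filtered out, where 16.6% of genes passed, 5 (with Psma4 and Psmb3) with an intensity trend, where 8.96% did, and 3 at an adjusted p of 0.10, where 8.03% did. It stayed 0 with median centring. It did not rise with a sample left out either, where a single array stands for a prefix and hardly any gene passed. For the pathway and marker genes the number, 0, was 6 with quantile normalization, 5 with the mean of probe sets and 5 without _x_at and _s_at probe sets. It was 10 with the filter, 19 with an intensity trend and 11 at 0.10, an alternative added after the data were seen. With a sample left out, a single array stands for a prefix, and passing genes are not counted. The median range of the proteasome genes, in place of their SD of 0.14, was 0.28. Of 19 named proteasome genes, 14 kept the sign of their difference in all alternatives run. With a sample left out, the others turned for Psma8 without skm4 (-0.11 to 0.47 over the 4 samples left out), Psmb5 without nm7 (-0.054 to 0.20), Psmb6 without nm8 (-0.089 to 0.023) and Psmb7 without skm5 and without nm8 (-0.047 to 0.10). With the mean of probe sets, Psme3 turned to 0.00019 and Uba7, of the pathway genes, to -0.020. The causes were not tested. No paired analysis was possible because the labels give 1 group and the titles of the prefixes share no number.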

Other observations

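The samples of a prefix differed from each other less in the proteasome genes than over all genes. The median absolute difference between skm4 and skm5 was 0.11 for the 48 proteasome genes and 0.16 for all genes, and between nm7 and nm8 it was 0.09 and 0.14. Brighter genes vary less on these arrays, and the genes were not matched for level here. The 14 partners in assembly, docking and substrate delivery had 0.06 between skm4 and skm5 and 0.08 between nm7 and nm8, so low values were not particular to the proteasome genes. These medians were taken after the values were seen and were not tested.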
